A study of Mus musculus with 17 samples.

Results

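The 10 genes described here mark the mesothelium, and they were followed through the series: Upk3b, Upk1b, Wt1, Msln, Lrrn4, Bnc1, Nkain4, Muc16, Rspo1 and Myrf. They were taken by symbol from the deposited expression table, which held all 10 of the 10 symbols among 54658 genes, and all 10 reached the level of at least 1 CPM (the reads of a gene scaled to a fixed total per library) in at least 2 libraries that was required for testing. RNA sequencing of mouse tissue gave 16 libraries, a pair for each of 8 codes. KO implants (MKM, MKF) and WT implants (MWM, MWF) grew from embryonic fibroblasts of leptin knockout or wildtype pups, injected under the skin of the chest of hosts of a type named LD at 3 to 5 weeks of age, and the last letter stands for male or female groups. Visceral fat came from the codes EVM (surgery), EVFY (a code that the labels do not spell out) and EVFN (no surgery), and subcutaneous fat from ESM (male, surgery). Surgery destabilized the medial meniscus of the left knee at 16 weeks, and tissue was taken at 28 weeks. The implant groups, ESM and EVM had surgery. The labels do not give the allele of the knockout, the animals that supplied the endogenous fat, or whether the libraries of a code came from separate animals, and the design text also calls the hosts male.

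The mesothelium is the single sheet of flat cells that lines the peritoneal, pleural and pericardial cavities and covers the organs in them. It arises from mesoderm, keeps both epithelial and mesenchymal traits, and secretes a lubricating film. Visceral fat lies inside the peritoneal cavity and carries this sheet on its surface, whereas subcutaneous fat lies under the skin and has none. Upk3b and Upk1b belong to the uroplakins, first known as membrane plaque proteins of the bladder lining, and Upk1b is a tetraspanin. Msln encodes mesothelin, a lipid-anchored surface protein, and Muc16 a giant membrane mucin known in humans as CA125, which binds mesothelin. Lrrn4 encodes a leucine-rich repeat membrane protein and Nkain4 a protein that interacts with a sodium pump subunit. Wt1 and Bnc1 encode zinc finger transcription factors, and Myrf a factor that is released from a membrane by cleaving itself and is best known for switching on myelin genes. Rspo1 encodes a secreted R-spondin, which strengthens Wnt signalling through receptors of the Lgr family.

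A pair of libraries stood apart from their codes and are given singly, outside every group value. Over all genes tested, the profile nearest to that labelled EVFN1 was MKF1 (r = 0.984, log2 values), while r was 0.906 with EVFN2. The profile nearest to that labelled MKM1 was EVFY1 (r = 0.989), while r was 0.891 with MKM2. Leaving out the 10 genes gave the same nearest libraries. Ddx3y, a gene of the Y chromosome, also set each apart from the other library of its code: MKM1 had no read and MKM2 80.6 CPM, and EVFN1 had reads where EVFN2 had none. Levels of the 10 genes were known when both libraries were set aside, so the tests on 14 libraries are not independent of that step, and counts of calls that change with all 16 are given beside them. Totals ran from 16444965 to 25805502 reads per library, where 1 read was worth 0.039 to 0.061 CPM. The labels name the tissue as ganglia, although 8 adipocyte genes summed to at least 9012 CPM in every library and the neuronal genes Nefl and Snap25 did not pass 4.68 and 3.95 CPM. Since separate animals are not stated, the spread behind each p-value is that between libraries and may be technical.

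Upk3b lies at chr5:136038496-136046487 on the plus strand, Wt1 at chr2:105126529-105173616 (plus), and Rspo1 at chr4:124986430-125009099 (plus). The others are on the minus strand: Upk1b at chr16:38773184-38800328, Msln at chr17:25748613-25754378, Lrrn4 at chr2:132868305-132880891, Bnc1 at chr7:81966672-81992292, Nkain4 at chr2:180934772-180954699, Muc16 at chr9:18495455-18674530 and Myrf at chr19:10208272-10240748 (mm10, GENCODE M21, whole genes, all protein-coding). Exons of Bnc1 share 98 bases with 4833418N17Rik and exons of Nkain4 share 55 bases with Gm14341, both on the opposite strand. Those partners stayed at or below 0.329 and 0.0594 CPM.

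RefSeq promoters (GRCm38.p6) were at hand for 5 of the 10, namely Bnc1, Lrrn4, Muc16, Rspo1 and Upk3b. The 250 bases before each start site were searched on both strands for CATTCC (the core bound by TEAD factors), CTGGCAC or CTGGTAC (bound by MYRF), GCGTGGGNG (shared by WT1 and EGR1) and AGATAA (bound by GATA factors). A TEAD core stood in 2 of the 5 promoters, against 12.64% of 32851 mouse promoters, and a MYRF motif in 1, against 5.927%. The WT1 and EGR1 motif (1.65% of all promoters) and the GATA motif (9.988%) were in none of the 5. The 2 promoters with a match are shown 5′ to 3′ on the strand of the gene, with matches in capitals; they are those of Upk3b, with the highest level per kilobase of the 10, and of Lrrn4. The Upk3b promoter is chr5:136038246-136038495 (plus strand), with the TEAD core starting 241 bases and the MYRF motif 77 bases before the start site. The Lrrn4 promoter is chr2:132880863-132881112 (minus strand), with the reverse complement of the TEAD core starting 196 bases before the start site. A match describes these letters and is not evidence of binding.
Upk3b: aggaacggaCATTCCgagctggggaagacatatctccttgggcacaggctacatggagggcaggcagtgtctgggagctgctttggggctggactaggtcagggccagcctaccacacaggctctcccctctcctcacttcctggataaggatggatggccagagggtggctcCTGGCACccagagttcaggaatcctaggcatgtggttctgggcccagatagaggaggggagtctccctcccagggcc
Lrrn4: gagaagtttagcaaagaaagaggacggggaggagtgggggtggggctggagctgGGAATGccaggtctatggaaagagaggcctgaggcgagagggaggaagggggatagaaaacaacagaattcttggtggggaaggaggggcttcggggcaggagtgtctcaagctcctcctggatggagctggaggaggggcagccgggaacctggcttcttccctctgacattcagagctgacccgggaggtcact

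Visceral fat, meaning EVM1, EVM2, EVFY1, EVFY2 and EVFN2, held all 10 genes at 6.36 CPM or more, and 9 of the 10 lay below 4 CPM in both subcutaneous libraries. Levels between genes are compared per kilobase of exon. The highest in visceral fat was that of Upk3b, at 40.2 ± 16.4 CPM per kb (SD, n = 5), followed by Rspo1 at 24.8 ± 12.5. Msln (11.9 ± 4.13), Upk1b (11.2 ± 4.06), Wt1 (10.3 ± 6.26) and Lrrn4 (10.3 ± 2.47) came next, and these 4 differed from each other by less than any of their SDs. Nkain4 (8.32 ± 2.18), Myrf (5.79 ± 1.63), Bnc1 (2.27 ± 0.876) and Muc16 (0.996 ± 0.622 CPM per kb) were lower. Muc16, with 26350 exonic bases, was therefore last per kb although its CPM was above that of Bnc1 and Nkain4.

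**Figure D1:**
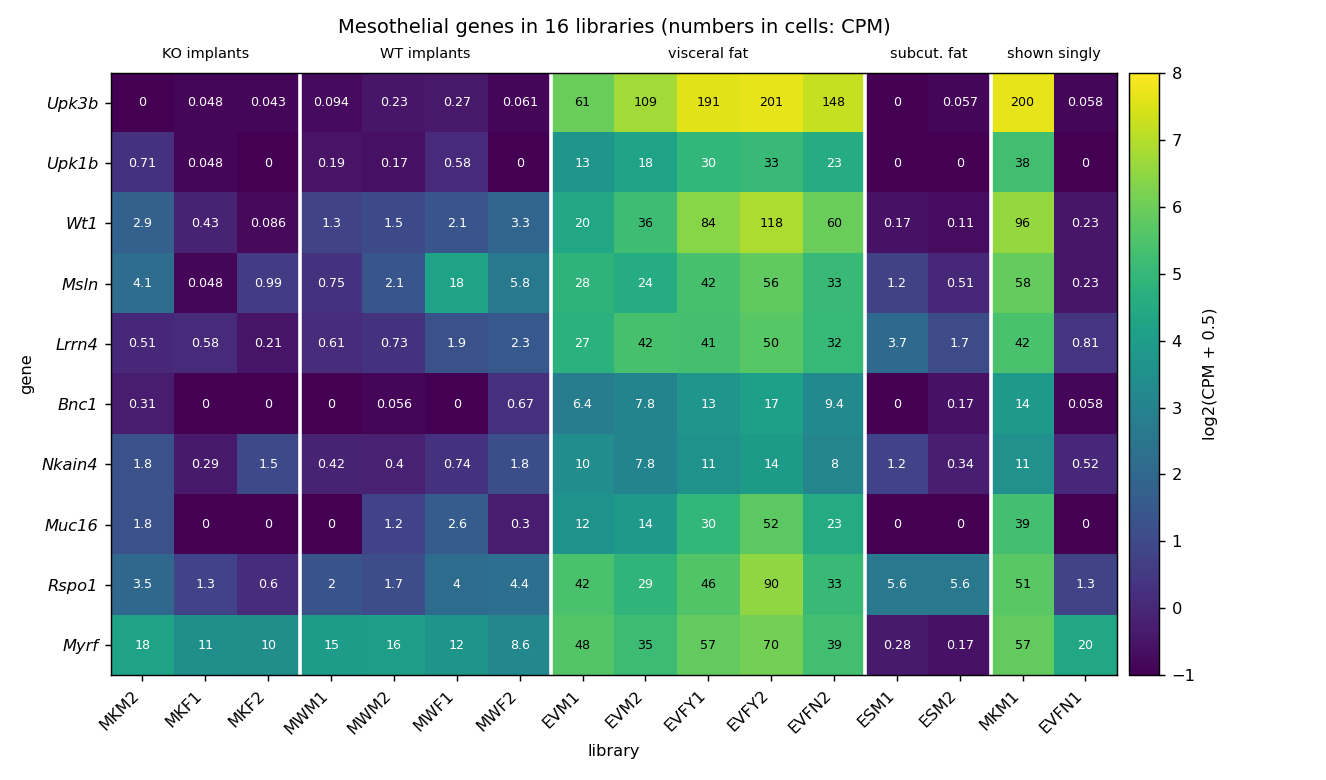
Level of each of the 10 genes (rows) in each library (columns, grouped), coloured by log2(CPM + 0.5) with the CPM printed in the cells. The 5 visceral libraries and the library labelled MKM1 are the brightest within every row. Outside them Myrf is the one row with levels above 8 CPM in every implant.

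The first question is how visceral fat differs from subcutaneous fat, since it is the tissue that bears a mesothelium. All 10 genes were higher in visceral fat, by limma on log2(CPM + 0.5) over 17964 genes with Benjamini-Hochberg adjustment, where 0.568% of all genes tested were called higher. Every visceral library was above both subcutaneous libraries for all 10, which held for 7.05% of all genes tested. The median log2 fold change of the 10 was 5.13 (5.38 with genes at 0 in ESM set to their bound), and that of all genes 0.049.

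Among the surface proteins, Upk3b was at 61.4 (EVM1), 109 (EVM2), 191 (EVFY1), 201 (EVFY2) and 148 CPM (EVFN2) in visceral fat, against 0 (ESM1) and 0.057 CPM (ESM2) in subcutaneous fat. The subcutaneous value is 1 read in ESM2. The ratio over pooled reads was 4937 (exact 95% counting interval 886 to 195034), and the fitted log2 fold change was 7.99 (SE 0.26, limma adjusted p = 2.35e-06). Upk1b was at 12.6, 18.2, 30.3, 33.2 and 23.2 CPM in EVM1, EVM2, EVFY1, EVFY2 and EVFN2, against no read in either ESM library. Its level was at least 272-fold higher, with the subcutaneous side set at 3 reads in all (log2 fold change 5.51, limma adjusted p = 7.04e-05). For both uroplakins every visceral library was therefore far above both subcutaneous ones.

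Muc16 had no read in ESM1 or ESM2, and was at 11.8, 13.9, 30.4, 52.4 and 22.8 CPM in the same order of visceral libraries, at least 299-fold higher (log2 fold change 5.54, limma adjusted p = 0.00304). Its partner Msln was at 28.2, 23.5, 41.6, 55.6 and 32.7 CPM, against 1.19 (ESM1) and 0.513 CPM (ESM2), a ratio of means of 42.6 (log2 fold change 4.74, adjusted p = 0.00394, limma). Mesothelin transcript was therefore low but counted in subcutaneous fat, with 21 and 9 reads. Lrrn4 averaged 38.2 ± 9.18 CPM in visceral fat (SD, n = 5), against 3.74 and 1.65 CPM in ESM1 and ESM2, and Nkain4 was at 7.75 to 14.3 CPM, against 1.25 and 0.342 CPM. Their log2 fold changes were 3.61 for Lrrn4 (limma adjusted p = 0.000918) and 3.07 for Nkain4 (limma adjusted p = 0.0131).

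Of the transcription factors, Wt1 was at 20.2, 36.3, 83.9, 118 and 60.4 CPM in EVM1, EVM2, EVFY1, EVFY2 and EVFN2, against 0.170 and 0.114 CPM in ESM1 and ESM2 (log2 fold change 6.43, limma adjusted p = 2.94e-05). Bnc1 was at 6.36, 7.83, 12.5, 16.6 and 9.39 CPM, against no read in ESM1 and 0.171 CPM (3 reads) in ESM2. Its pooled ratio was 122 (exact 95% counting interval 41.6 to 592), with a log2 fold change of 4.16 (limma adjusted p = 0.000514). Myrf was at 47.7, 35.4, 56.7, 69.7 and 38.6 CPM, against 0.284 and 0.171 CPM (log2 fold change 6.01, limma adjusted p = 2.35e-06). All 3 factors were close to the detection limit in subcutaneous fat.

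The secreted factor Rspo1 had the smallest change of the 10, a log2 fold change of 2.81 (SE 0.29, limma adjusted p = 0.00272). It was at 42.0, 29.4, 46.2, 89.8 and 33.1 CPM in visceral fat, against 5.56 and 5.64 CPM in ESM1 and ESM2, so it was counted well above the detection limit there. Of the 8 other genes of its pathway (R-spondins, Lgr receptors and the ligases Rnf43 and Znrf3), 0 passed limma's threshold between the tissues. In KO implants Rspo3 was lower and Rspo4 higher than in visceral fat (log2 fold changes -1.79 and 2.01), and in WT implants Rspo3 was lower and Lgr5 higher (-1.92 and 1.39), at limma adjusted p of 0.0006 to 0.0347. Rspo3, another R-spondin, was at 1.40 to 49.8 CPM in the 5 visceral libraries, against 1.02 and 0.285 CPM in ESM1 and ESM2.

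Markers of other cells also differed between libraries. EVM1 held epithelial genes, with Epcam at 43.5, Krt8 at 79.2 and Pax8 at 22.3 CPM, whereas Epcam did not pass 1.31 CPM in the other 4 visceral libraries. Without EVM1 all 10 genes were still called, where 0.635% of all genes were called higher. Keratinocyte genes summed to 99.8 CPM in ESM2 and 3.18 CPM in ESM1, and without ESM2 the call was kept by 7 of the 10, not by Msln, Nkain4 and Muc16 (limma adjusted p = 0.0753, 0.163 and 0.0510), where 0.145% of all genes were called higher. ESM and EVM carried Ddx3y (73.5 to 95.5 CPM) and nearly no Xist, and EVFY and EVFN2 the reverse, so the visceral side mixes libraries with male and female gene expression. With EVM alone as visceral fat, an alternative chosen after seeing the data that leaves male surgery libraries on both sides, all 10 were higher, with log2 fold changes of 2.55 (Rspo1) to 7.28 (Upk3b), where 0.618% of all genes were called higher. With all 16 libraries as labelled, 1 of the 10 passed (Myrf, log2 fold change 5.86, limma adjusted p = 0.00015), where 0.0891% of all genes were called higher. By edgeR's quasi-likelihood test on recovered reads 7 of the 10 passed, not Bnc1, Nkain4 and Muc16, where 0.362% of all genes were called higher. In bulk tissue, fewer cells of a type and less RNA per cell cannot be told apart.

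The implants were then compared with visceral fat, to ask whether tissue grown from fibroblasts under the skin holds these transcripts. All 10 genes were lower in KO implants (MKM2, MKF1, MKF2), where 8.24% of all genes tested were called lower, and all 10 were lower in WT implants (MWM1, MWM2, MWF1, MWF2), where 6.45% were. No implant library reached the lowest visceral library for any of the 10, a separation found in 11.6% of all genes for KO implants and 5.0% for WT implants. The median log2 fold change of the 10 was -4.30 for KO implants and -4.14 for WT implants, against 0.079 and 0.11 over all genes. By edgeR's quasi-likelihood test on recovered reads, all 10 were lower in both kinds of implant too, where 9.51% (KO) and 8.49% (WT) of all genes were. With all 16 libraries the counts were 0 of 10 for KO implants (10 at an unadjusted p under 0.05) and 6 of 10 for WT implants, with 0.0% and 1.63% of all genes called lower. In that fit Wt1, Msln, Lrrn4 and Muc16 missed the threshold for WT implants. Adipocyte genes were lower in the implants as well, 4 of 8 in KO implants and 6 of 8 in WT implants by limma (median log2 fold changes -0.77 and -0.73), with summed levels of 11848 to 14461 CPM in KO implants, 9012 to 19458 CPM in WT implants and 22181 to 35534 CPM in visceral fat; the part of a different cell makeup in the lower levels of the 10 was not tested. The adipocyte sum includes Cfd, a single gene at 5788 to 12351 CPM in visceral fat. Cfd was at 1223 to 2210 CPM in WT implants and at 91.4 to 104 CPM in KO implants. After median-of-ratios scaling, 2702 genes were called higher and 1955 lower in KO implants, against 2933 and 1480 on the deposited scale. In WT implants 2457 genes were then higher and 1852 lower, against 2842 and 1159.

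Upk3b was at a handful of reads or none in every implant. It had 0 (MKM2), 1 (MKF1) and 1 read (MKF2) in KO implants, and 2 (MWM1), 4 (MWM2), 5 (MWF1) and 1 read (MWF2) in WT implants. In CPM these were 0, 0.0483 and 0.0429 in KO implants, and 0.0940, 0.226, 0.266 and 0.0608 in WT implants. Relative to visceral fat the level was 4465-fold lower in KO implants over pooled reads (exact 95% counting interval 1236 to 36869), and 878-fold lower in WT implants by the ratio of means. The log2 fold changes were -8.00 and -7.67 (limma adjusted p = 2.01e-06 and 1.04e-06).

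Upk1b was at 0.713, 0.0483 and 0 CPM in MKM2, MKF1 and MKF2, whereas MWM1, MWM2, MWF1 and MWF2 had 0.188, 0.169, 0.584 and 0 CPM. Its log2 fold change against visceral fat was -4.84 for KO implants and -5.01 for WT implants (limma adjusted p = 6.35e-05 and 3.41e-05). Bnc1 had reads in 1 of 3 KO implants (0.305 CPM in MKM2) and in 2 of 4 WT implants (0.0565 CPM in MWM2 and 0.669 CPM in MWF2). Both genes were thus at or near the counting limit in most implants. A count of 0 allows up to 3 reads, or 0.129 to 0.182 CPM in these libraries.

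Msln and Muc16 were more uneven. Msln was at 4.12 (MKM2), 0.0483 (MKF1) and 0.987 CPM (MKF2) in KO implants, and at 0.752 (MWM1), 2.15 (MWM2), 18.2 (MWF1) and 5.78 CPM (MWF2) in WT implants. MWF1 was thus the one implant within a factor of 2 of the mean of visceral fat (36.3 CPM). Muc16 was at 1.83 CPM in MKM2 with no read in MKF1 and MKF2, whereas MWM1, MWM2, MWF1 and MWF2 had 0, 1.24, 2.60 and 0.304 CPM. Relative to visceral fat, Msln had log2 fold changes of -4.09 in KO implants and -2.97 in WT implants, and Muc16 of -4.43 and -4.26 (limma adjusted p of 0.000669 to 0.00253 over the 4).

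Wt1 was low, at 2.90, 0.435 and 0.0859 CPM in MKM2, MKF1 and MKF2, whereas MWM1, MWM2, MWF1 and MWF2 had 1.32, 1.52, 2.07 and 3.34 CPM. The value in MKF2 is 2 reads and so is close to the detection limit. Rspo1 ran from 0.601 to 3.51 CPM in KO implants and from 1.69 to 4.44 CPM in WT implants, Lrrn4 from 0.215 to 0.580 CPM and from 0.611 to 2.31 CPM, and Nkain4 from 0.290 to 1.83 CPM and from 0.395 to 1.76 CPM. The log2 fold changes of these 4 genes against visceral fat were -2.57 (Nkain4) to -5.29 (Lrrn4) in KO implants, and -3.04 (Nkain4) to -4.49 (Wt1) in WT implants.

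**Figure D2:**
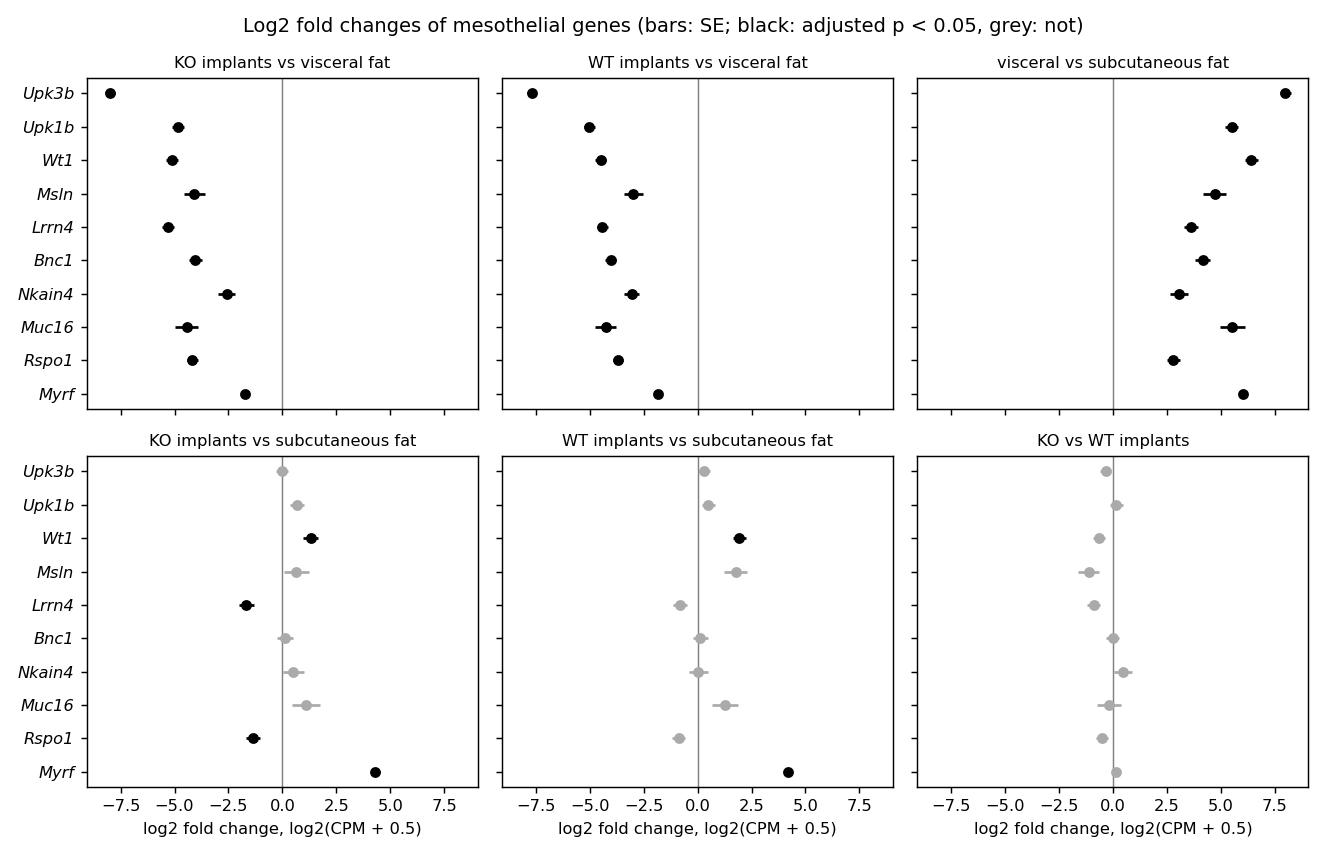
Log2 fold changes on the log2(CPM + 0.5) scale for each gene (rows) in 6 comparisons, with bars for the SE from limma on 14 libraries. Black points passed an adjusted p of 0.05 and grey points did not; all 10 points are black in the 3 comparisons with visceral fat, and none between KO and WT implants.

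Myrf kept a larger share of its visceral level in the implants than the other genes did, MWF1 excepted, where Msln was above it. It was at 18.0 (MKM2), 10.7 (MKF1) and 10.4 CPM (MKF2) in KO implants, and at 14.9 (MWM1), 15.8 (MWM2), 12.0 (MWF1) and 8.63 CPM (MWF2) in WT implants. Its mean relative to visceral fat was 3.80-fold lower in KO implants and 3.86-fold lower in WT implants (log2 fold changes -1.71 and -1.85, limma adjusted p = 0.000276 and 0.000275). Relative to the mean of visceral fat, Myrf stood at 36.2% in MKM2 and at 21.6% or slightly less in MKF1 and MKF2, where the median of the other 9 genes was 0.135% to 4.55%. In the WT implants Myrf stood at 17.4% to 31.9%, and the median of the other 9 did not pass 6.05%. Single genes came closer than these medians. In MWF2 Myrf was at 17.4%, Nkain4 at 17.1% and Msln at 15.9%, and Nkain4 reached 17.8% in MKM2 and 14.6% in MKF2. In subcutaneous fat, by contrast, Myrf was at 0.572% (ESM1) and 0.344% (ESM2) of the visceral mean, so the implants and subcutaneous fat did not overlap.

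**Figure D3:**
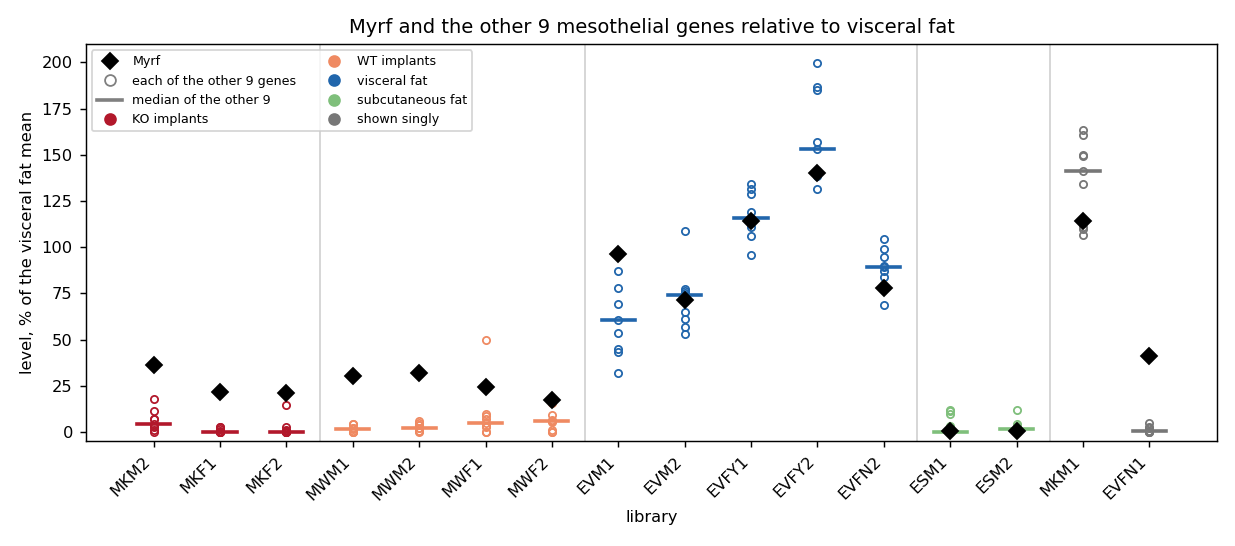
Level of Myrf (diamonds) and of each of the other 9 genes (circles, with their median as a line) in each library, in percent of the mean of the 5 visceral libraries. Myrf stays between 17.4% and 36.2% in the 7 implants, while the medians of the other genes do not pass 6.05%. Msln is above Myrf in MWF1, and Nkain4 and Msln are close to it in MWF2.

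The distance of each gene's profile from the mean of the other 9, taken over all 16 libraries on standardised log2 values, was 0.782 SD for Myrf and 0.161 (Upk1b) to 0.386 SD (Msln) for the rest. The median distance of all genes to the mean of the 10 was 1.41 SD. Myrf is also transcribed in epithelia and in oligodendrocytes, and markers of both were set beside it. The summed level of 6 epithelial genes (Epcam, Cdh1 and others) was 40.8, 6.43 and 1.29 CPM in MKM2, MKF1 and MKF2, and 53.7 to 76.1 CPM in the WT implants. The oligodendrocyte gene Mog had no read in the 3 KO implants and at most 0.0531 CPM in the WT implants. MKM2, with the most epithelial transcript of the KO implants, also had the highest level of Myrf, Wt1, Upk1b, Msln, Bnc1, Nkain4, Muc16 and Rspo1 among them; the part of epithelium in this was not tested.

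Against subcutaneous fat, the place nearest to where the implants grew, 2 to 4 of the genes differed. In KO implants 2 of the 10 were higher and 2 lower, where 13.4% and 4.87% of all genes tested were called higher and lower, so the count of 2 higher is near the background. Myrf was higher (log2 fold change 4.30, limma adjusted p = 5.86e-05), with 3 KO implants at 10.4 to 18.0 CPM, against 0.284 and 0.171 CPM in ESM1 and ESM2, a ratio of means of 57.4. Wt1 was also higher (log2 fold change 1.31, limma adjusted p = 0.0291), but without MKM2 its log2 fold change was 0.21 (limma adjusted p = 0.756), and the KO implants overlapped with ESM. Lrrn4 was lower (log2 fold change -1.68, limma adjusted p = 0.0126), with 0.509, 0.580 and 0.215 CPM, against 3.74 and 1.65 CPM in ESM1 and ESM2, and Rspo1 was lower (log2 fold change -1.37, limma adjusted p = 0.0198), with 3.51, 1.26 and 0.601 CPM, against 5.56 and 5.64 CPM. For both of these genes every KO implant lay below both ESM libraries, as for 18.7% of all genes tested. Without ESM1 only Myrf of the 10 kept its call (10.4% of all genes called), and without ESM2 only Myrf and Lrrn4 did (9.35%), so these counts are near the background, and edgeR's test called 3 of the 10 (not Wt1), where 16.9% of all genes were called.

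In WT implants 2 of the 10 were higher than in subcutaneous fat and 0 lower, where 8.54% and 1.82% of all genes were called higher and lower. Myrf had a log2 fold change of 4.17 (limma adjusted p = 1.98e-05) and a ratio of means of 56.5. Wt1 was at 1.32 to 3.34 CPM in the 4 WT implants, against 0.170 and 0.114 CPM in ESM1 and ESM2 (log2 fold change 1.94, limma adjusted p = 0.00719), 14.5-fold by the means; without ESM1 its adjusted p was 0.0568. Msln had a log2 fold change of 1.76 (SE 0.55) and missed the threshold (limma adjusted p = 0.0775), but passed it without MWF2 (2.15, limma adjusted p = 0.0458). DESeq2 called 7 of the 10, where 16.0% of all genes were called. Median-of-ratios scaling moved the median of all genes between WT implants and subcutaneous fat to 0.031, against 0.14 on the deposited scale, with 1404 genes higher and 580 lower, against 1534 and 327. It moved that between KO implants and subcutaneous fat to 0.0084, against 0.12, with 2190 genes higher and 1254 lower, against 2399 and 875. The log2 fold change of Myrf was then 4.24 in KO implants and 4.11 in WT implants, and that of Wt1 1.26 in KO implants and 1.88 in WT implants. With all 16 libraries, 1 of the 10 was called in each of these comparisons, Myrf again, where 0.117% (KO implants) and 2.2% (WT implants) of all genes were called higher.

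Between KO and WT implants, the comparison by leptin genotype of the donor cells, 0 of the 10 genes passed limma's threshold, where 10.8% of all genes tested did. Lrrn4 alone of the 10 had an unadjusted p under 0.05. On recovered reads edgeR called 0 (9.76% of all genes) and DESeq2 called 2 (17.2% of all genes), namely Lrrn4 and Wt1, both lower in KO implants. Lrrn4 was at 0.509, 0.580 and 0.215 CPM in MKM2, MKF1 and MKF2, whereas MWM1, MWM2, MWF1 and MWF2 had 0.611, 0.734, 1.86 and 2.31 CPM, with no overlap (log2 fold change -0.88, SE 0.30, limma adjusted p = 0.0912). Upk3b did not overlap in CPM either, with 2 reads in the KO implants and 12 in the WT implants, 5.14-fold lower in KO implants (exact 95% counting interval 1.14 to 47.3). However, MKF1, MKF2 and MWF2 had 1 read each (0.0483, 0.0429 and 0.0608 CPM), so MWF2 was higher only through its smaller total of reads. Of the 10 genes 2 were thus lower without overlap in CPM, as were 12.6% of all genes tested. Msln had a log2 fold change of -1.12 (SE 0.50, limma adjusted p = 0.184). With all 16 libraries the direction turned for 6 of the 10, Lrrn4 and Upk3b among them.

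The genotypes were also compared within the male and the female codes. In the male codes MKM2 had 2.90 CPM of Wt1, against 1.32 and 1.52 CPM in MWM1 and MWM2, and 4.12 CPM of Msln, against 0.752 and 2.15 CPM. In the female codes MKF1 and MKF2 had 0.435 and 0.0859 CPM of Wt1, against 2.07 and 3.34 CPM in MWF1 and MWF2, and 0.0483 and 0.987 CPM of Msln, against 18.2 and 5.78 CPM. The signs were opposite in the male and female codes for both genes, with 1 KO library in the male codes. MKM2 also differed from MWM1 and MWM2 in Ddx3y (80.6 CPM, against 13.1 and 17.3 CPM) and Xist (3.77 CPM, against 494 and 466.1 CPM). The test of the difference between the codes called 0 of the 10 (limma adjusted p of 0.0615 to 0.924; 5 with an unadjusted p under 0.05), where 0.562% of all genes were called. For this difference edgeR called 0 (0.0% of all genes) and DESeq2 called 4 of the 10 (3.68% of all genes), namely Wt1, Msln, Rspo1 and Bnc1. Without MKM2, 3 of the 10 were lower in KO implants, where 6.37% of all genes were, among them Msln (log2 fold change -2.30, limma adjusted p = 0.028).

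Between MWM and MWF, the male and female codes of WT implants, 1 of the 10 was called, Msln, lower in MWM with 0.752 and 2.15 CPM, against 18.2 and 5.78 CPM in MWF (log2 fold change -2.57, limma adjusted p = 0.0304). The shares of all genes called lower and higher were 12.2% and 1.45%. The median log2 fold change over all genes was -0.18 here and 0.031 after median-of-ratios scaling, which called 825 genes higher and 1307 lower, against 261 and 2197. Msln then had a log2 fold change of -2.37 (limma adjusted p = 0.0482). The call was lost with edgeR (adjusted p = 0.0798; 8.87% of all genes called), kept with DESeq2, which also called Myrf (17.1% of all genes), and lost when MWF1, MWM1 or MWM2 was left out (limma adjusted p of 0.0756 to 0.167). Of the 10, 5 (Wt1, Msln, Lrrn4, Nkain4 and Rspo1) were lower in MWM without overlap, as were 43.8% of all genes tested. The sex genes did not separate these codes cleanly. Ddx3y was higher in MWM (log2 fold change 4.43, limma adjusted p = 0.00016). Xist was not called between MWM and MWF (log2 fold change -0.35, SE 0.37, limma adjusted p = 0.58). The comparison is therefore one of codes, and whether it is one of male against female tissue was not tested.

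Within visceral fat, EVM was compared with EVFY and EVFN2, which sets surgery in EVM against 1 code without surgery and 1 code of unstated meaning. Of the 10, 0 passed limma's threshold, where 1.35% of all genes tested did; 3 had an unadjusted p under 0.05, edgeR called 0 (1.71% of all genes) and DESeq2 called 1, Wt1 (8.85% of all genes). Of the 10, 6 (Upk3b, Upk1b, Wt1, Msln, Bnc1 and Muc16) were lower in both EVM libraries than in EVFY1, EVFY2 and EVFN2, as were 19.0% of all genes tested. Wt1 averaged 28.3 ± 11.4 CPM in EVM (SD, n = 2) and 87.5 ± 29.0 CPM in EVFY and EVFN2 (SD, n = 3), with a log2 fold change of -1.50 (SE 0.34, limma adjusted p = 0.0769). Upk3b averaged 85.0 ± 33.3 CPM in EVM and 180 ± 27.7 CPM in EVFY and EVFN2 (log2 fold change -1.06, SE 0.28, limma adjusted p = 0.113). Without EVM2, the log2 fold changes were -1.92 for Wt1 and -1.46 for Upk3b. The EVM side is then EVM1 alone, the library that held epithelial genes (Epcam at 43.5 CPM). Xist was at 0.223 and 0.194 CPM in EVM1 and EVM2, and at 273 to 644 CPM in EVFY and EVFN2, so surgery and sex cannot be told apart here. With all 16 libraries the direction turned for 9 of the 10, not Myrf.

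EVFY1 and EVFY2 were above EVFN2 for all 10 genes, which was also the case for 40.5% of all genes tested. No gene in the whole table passed limma's threshold between EVFY and EVFN2 (0.0% called), 1 of the 10 had an unadjusted p under 0.05, and edgeR and DESeq2 called 0 of the 10, where 0.0% and 0.0877% of all genes were called. EVFY2 was the highest of the 5 visceral libraries for all 10 genes. The level of the 10 genes together was 267 and 322 CPM in EVM1 and EVM2, 544 and 701 CPM in EVFY1 and EVFY2, and 409 CPM in EVFN2.

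The 2 libraries set aside lay far from their codes. The library labelled MKM1 had 107% (Rspo1) to 163% (Upk1b) of the visceral mean for all 10 genes, with Upk3b at 200.4, Wt1 at 95.5 and Msln at 58.5 CPM. The library labelled EVFN1 had Myrf at 20.3 CPM, or 40.9% of the visceral mean, and the other 9 at 0% to 5.06%. Upk3b was there at 1 read, and Upk1b and Muc16 had no read.

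A second list of 18 mesothelial genes, many of them shared with other epithelia, moved less uniformly; 17 could be tested, Calb2 being too low. Between visceral and subcutaneous fat 5 were higher and 0 lower: Krt7 (log2 fold change 4.21), Slpi (3.75), Krt19 (3.01), Gpm6a (2.28) and Aldh1a2 (1.19), at limma adjusted p of 7.59e-05 to 0.0376. Krt7 and Krt19 are keratins of simple epithelia, Slpi is a secreted protease inhibitor and Aldh1a2 makes retinoic acid. The median log2 fold change of the 17 was 0.34, against 0.049 over all genes and 5.13 for the 10. In KO implants 0 of the 17 were higher and 9 lower than in visceral fat, with Krt19 and Gpm6a at log2 fold changes of -2.78 and -2.88, and in WT implants 2 were higher (Krt18 and Ezr) and 7 lower. Over all genes 15.8% were called higher in WT implants, so the count of 2 higher is not above the background.

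Krt7 and Krt19 were the 2 genes of this list that differed between KO and WT implants. Krt7 was at 2.90, 0.435 and 0.129 CPM in MKM2, MKF1 and MKF2, whereas MWM1, MWM2, MWF1 and MWF2 had 5.97, 4.24, 7.97 and 8.94 CPM (log2 fold change -2.12, limma adjusted p = 0.000902). Krt19 was at 14.1, 0.821 and 0.859 CPM in the same KO implants, and at 12.1, 11.01, 16.9 and 14.2 CPM in the WT implants (log2 fold change -1.65, limma adjusted p = 0.00518), so MKM2 overlapped with them. Lung and airway genes moved with the implants: all 7 of the list (such as Sftpc, surfactant protein C, and Scgb1a1, a club cell protein) were higher in WT implants than in visceral fat, and 6 of the 7 were lower in KO than in WT implants by limma. Their sum was 13.4 to 33.0 CPM in KO implants and 137 to 540 CPM in WT implants, with the highest sums in MWF1 and MWF2. Msln is known to be transcribed in some epithelia too, and MWF1 and MWF2 were the 2 implants highest in Msln; the part of lung transcript in this was not tested.

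**Figure D4:**
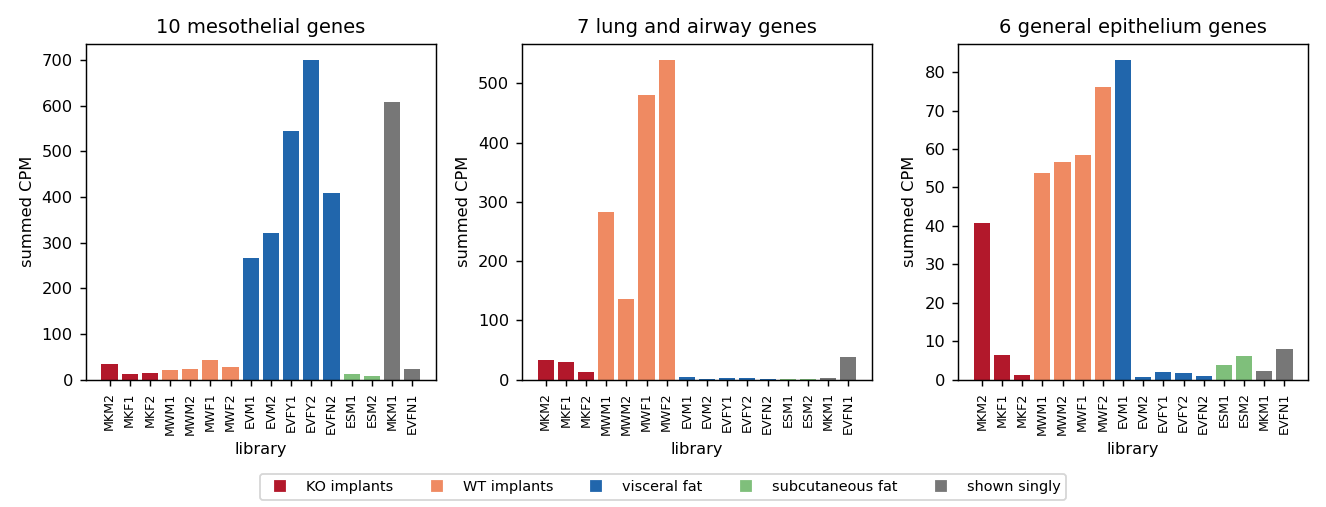
Summed CPM per library of the 10 mesothelial genes, of 7 lung and airway genes and of 6 general epithelial genes, each on its own linear axis from 0. The visceral libraries and the library labelled MKM1 lead the first panel at 267 to 701 CPM, the WT implants the second at 137 to 540 CPM, and EVM1 is the one visceral library high in the third, at 83.1 CPM.

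Other uroplakins were low. Upk2 was at 0 in 14 of the 16 libraries, and Upk3a, Upk3bl and Upk1a did not pass 0.638, 0.266 and 1.93 CPM in any library. Of this list Upk1a and Krt20, a keratin of the bladder lining, could be tested. Both were higher in WT implants than in visceral fat (log2 fold changes 1.08 and 0.94, limma adjusted p = 0.0295 and 0.041), where 15.8% of all genes were. In KO implants Krt20 was higher than in visceral fat too (1.58, limma adjusted p = 0.00729), and Upk1a was not called (0.22, limma adjusted p = 0.673). There 2933 of 17964 genes were called higher. Of 10 transcription factors of visceral mesoderm, 9 were tested, and Gata6 (log2 fold change 1.47) and Tcf21 (4.11) were higher in visceral than in subcutaneous fat (limma adjusted p = 0.000514 and 0.00449). Gata6 was at 38.0 to 86.4 CPM in the 5 visceral libraries, against 18.7 and 20.8 CPM in ESM1 and ESM2, and Tcf21 at 3.22 to 18.0 CPM, against no read in either. In implants 4 of the 9 were lower than in visceral fat in both genotypes, namely Gata6, Tcf21, Osr1 and Nr2f2. Of 8 genes of large peritoneal macrophages, which live in the cavity that the mesothelium lines, 1 was higher in visceral fat, Alox15 (log2 fold change 2.92, limma adjusted p = 0.00376). Between visceral and subcutaneous fat 0 genes passed of the lists for the retinoic acid pathway (11 tested), Hippo and TEAD (10), adipocytes (8) and ovary, oviduct and uterus (3).

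The genes whose profiles over the 16 libraries were nearest to the mean of the 10 were Tmem151a, Crb2, Wnt2b, Gpm6a, Gata5, Tmem98, Alox15, Ano1, Greb1l and Flrt1, at distances of 0.170 to 0.345 SD among 15220 genes ranked. They were chosen for this pattern, so their levels are a description. Wnt2b, a Wnt ligand, was at 14.6 to 59.0 CPM in visceral fat and at 2.05 and 2.61 CPM in ESM2 and ESM1, with 57.6 CPM in the library labelled MKM1. Crb2, a polarity protein, was at 4.10 to 12.2 CPM in visceral fat and did not pass 0.973 CPM in any library other than these and the one labelled MKM1. Tmem151a, the nearest, was at 9.26 to 23.4 CPM in visceral fat and at 0.773 to 2.44 CPM in the implants, subcutaneous fat and the library labelled EVFN1. Nearer than Myrf, the farthest of the 10, were 395 genes.

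**Figure D5:**
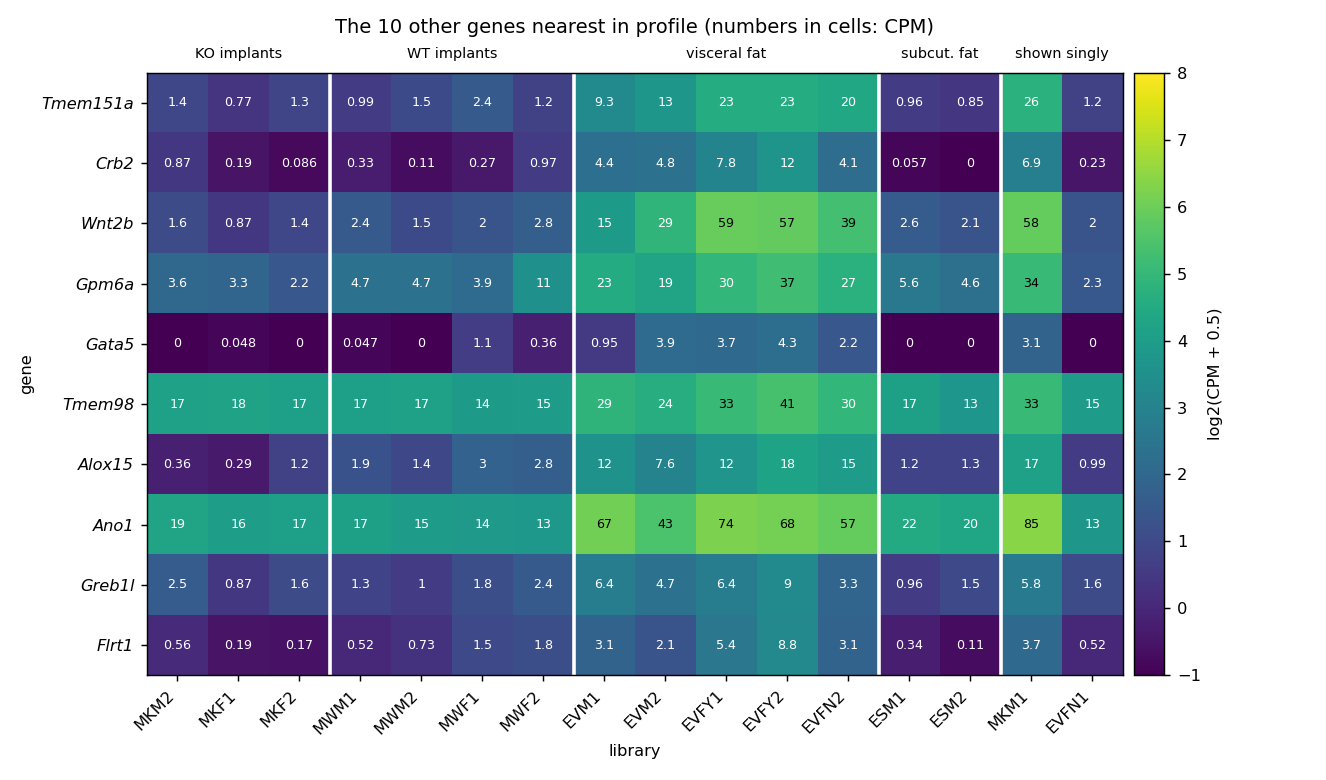
Level of the 10 other genes with the nearest profiles (rows, nearest first) in each library (columns, grouped), coloured by log2(CPM + 0.5) with the CPM printed in the cells. In 9 of the 10 rows every visceral library is above every implant (Gata5 in EVM1, at 0.949 CPM, is below MWF1 at 1.06 CPM), and the library labelled MKM1 matches the visceral libraries.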

How the data were processed

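RNA was measured in 16 libraries after enzymatic removal of ribosomal RNA and random priming, per the labels' protocols; strand is not given in the sources used here. Adapters were trimmed with cutadapt 2.7, reads mapped with STAR 2.5.4 to mm10 and counted with featureCounts (Subread 1.6.3), per the submitters' processing notes. The deposited table holds CPM values for 54658 genes that sum to 1000000 in each library; the low values are whole multiples of 1 read, and 100% of values came out whole (tolerance 0.001), which gave totals of 16444965 to 25805502 reads. A library labelled ESF was not analysed here.

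The 17964 genes that reached 1 CPM in 2 or more libraries were fitted on log2(CPM + 0.5) with limma 3.58.1 (trend, robust) in 1 model of all groups, 14 libraries, with Benjamini-Hochberg adjustment and an adjusted p under 0.05 as threshold; fold changes on this scale understate those of low genes. Recovered reads were tested with edgeR 4.0.16 (quasi-likelihood) and DESeq2 1.42.0. Ratios against a side of 1 to 3 reads have exact 95% intervals over pooled reads, and a side of 0 was set at 3 reads over the group; both cover counting error only. Likeness is the root mean square distance between standardised log2 profiles. Alternatives were other pseudocounts (0.1 and 2), no filter, median-of-ratios scaling, the replicate number as a block, all 16 libraries, the libraries compared alone, and each library left out. The members, the lists and the libraries set aside were chosen with earlier results of these data known. Every member is named. Other lists are given by counts, with some of their genes named, which are not always those with the smallest adjusted p.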

Additional observations from a re-analysis of the deposited data

Results flagged for a closer look

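A single library stood out from its group for 2 of 20 groups tested, and chance marks about 1 in 20. Rspo1 was at 89.85 CPM in EVFY2, against 46.15 CPM in the next visceral library. Bnc1 was at 0.6689 CPM in MWF2, against 0.05647 CPM in the next WT implant.

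The library labelled MKM1 entered no group value, and its level of each of the 10 genes was above that of every WT implant. Among the surface proteins it had 200.4 CPM of Upk3b, against at most 0.2656 CPM in WT implants, 38.35 CPM of Upk1b, against at most 0.5844 CPM, and 58.46 CPM of Msln, against at most 18.17 CPM. It had 39.29 CPM of Muc16, against at most 2.603 CPM in WT implants, 42.37 CPM of Lrrn4, against at most 2.311 CPM, and 11.35 CPM of Nkain4, against at most 1.763 CPM. For the transcription factors it had 95.55 CPM of Wt1, against at most 3.344 CPM in WT implants, 14.11 CPM of Bnc1, against at most 0.6689 CPM, and 56.59 CPM of Myrf, against at most 15.81 CPM. Rspo1 was at 51.36 CPM there, against at most 4.439 CPM in WT implants.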

How the results depend on the processing

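The lower levels in both kinds of implant than in visceral fat kept all 10 calls under every alternative other than the 16 libraries as labelled. With those 16, the calls among the 10 genes were 1 between visceral and subcutaneous fat, 6 between WT implants and visceral fat, 0 between KO implants and visceral fat, 1 for each kind of implant against subcutaneous fat and 0 between MWM and MWF; they stayed at 0 between KO and WT implants and within visceral fat. With those 16 the direction turned, without a call, for 6 of the 10 between KO and WT implants (Lrrn4 at 0.47; median of the 10 at 0.71, against -0.25 with 14), for 9 of the 10, not Myrf, between EVM and EVFY with EVFN (Upk3b at 0.96, Wt1 at 0.096; median 0.57, against -0.65), and for Upk3b between KO implants and subcutaneous fat. DESeq2 called 7 of the 10 for WT implants against subcutaneous fat, 2 for KO against WT implants, 1 for EVM and 2 for MWM against MWF, and edgeR called 0 for the last of these. A pseudocount of 2 gave 1 for WT and 2 for KO implants against subcutaneous fat and 1 for EVM. Over all 17964 genes it called 1761, 3106 and 196 in the same order. For MWM against MWF, a pseudocount of 0.1 gave 0 and median-of-ratios scaling 2, where 2234 and 2132 of all genes were called. With the libraries compared alone, the counts were 2 for KO implants against subcutaneous fat and 0 for MWM against MWF. Over all genes, 2263 and 1529 were called in those comparisons. Leaving out each library gave 7 to 10 calls between visceral and subcutaneous fat, 1 to 3 for WT and 1 to 4 for KO implants against subcutaneous fat, 0 to 3 for KO against WT implants, 0 to 2 for EVM and 0 to 2 for MWM against MWF. The number of all genes called also differed between these fits, so the counts alone do not set the 10 apart. Between KO and WT implants it ran from 831 (without MWM2) to 2357 (without MKM2) of 17964. The cause of these changes was not tested, except that the settings with fewer libraries have less to estimate the spread from.

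Same-numbered libraries deviated together (r over 0.1) in 7 of 15 pairs of codes, with r from -0.443 to 0.335. With both signs present, these values do not settle whether the numbers pair the libraries. With the replicate block the calls among the 10 were 10 between visceral and subcutaneous fat, 10 for each kind of implant against visceral fat, 2 for WT and 4 for KO implants against subcutaneous fat, 1 for MWM against MWF and 0 in the others, the same counts as without it. Of all 17964 genes, the block called 200 between visceral and subcutaneous fat. It called 3745 for WT and 4147 for KO implants against visceral fat, and 1703 and 3046 against subcutaneous fat. For MWM against MWF it called 2083. Without the block, calls over all genes between visceral and subcutaneous fat numbered 215, against 58 with 16 libraries and 715 with DESeq2. At these depths 1 read is 0.0388 to 0.0608 CPM, which limits Upk3b, Upk1b, Bnc1 and Muc16 outside visceral fat.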
